A study of Mus musculus with 6 samples.

Results

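The genes described here build and gate the primary cilium, and they were followed in mouse ovarian surface epithelial cells, the single cell layer that covers the ovary, in which Lats1 and Lats2, the core kinases of the Hippo pathway, were targeted with Cre. Members were the protein-coding genes whose symbol begins with Ift, Bbs, Tctn or Nphp followed by a digit, plus 16 named motors, GTPases and transition zone genes. The rule found 43 genes among 48440 in the table, and all 43 passed the filter on low counts, among 14811 genes tested. Tctn2 fits the symbol rule but is annotated as a processed transcript in the GENCODE release used, so it is given separately. Ad-Cre-GFP cells (3 libraries, labelled Lats1/2 knockout) received an adenovirus with Cre recombinase and GFP. Ad-GFP cells (3 libraries, labelled WT) received a virus with GFP alone. RNA was taken 7 days after the virus, so the groups share the virus and GFP and differ in Cre. The sources used here do not give the floxed alleles, the promoter that drives Cre or the source of each replicate culture, so p-values measure the spread between these libraries, which may be technical. Deletion, exposure to Cre and any difference between cultures cannot be told apart in this design.

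The primary cilium is a single antenna-like projection built on a centriole, and it receives Hedgehog and other signals. No protein is made inside it, so intraflagellar transport (IFT) trains carry cargo along its microtubules, outward with the motor kinesin-2 and the IFT-B complex and back with dynein-2 and the IFT-A complex. The BBSome moves membrane proteins on these trains, and the transition zone at the base, made of MKS and NPHP modules, controls what enters and leaves. Cells usually form the cilium when they rest and take it apart when they divide.

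The labels were read first in the targeted genes. Lats1 was at 38.6, 36.0 and 36.6 CPM (counts scaled to a library of 1000000 and by TMM) in the Ad-Cre-GFP libraries and at 159, 151 and 168 CPM in the Ad-GFP libraries. Lats2 was at 98.8, 101 and 96.7 CPM in the Ad-Cre-GFP libraries and at 127, 131 and 131 CPM in the Ad-GFP libraries. Both were lower in every Ad-Cre-GFP library, with log2 fold changes of -2.10 ± 0.04 and -0.39 ± 0.03 (standard error, SE). Which exons Cre removes is not stated in the labels. Library totals were 27734527 to 30304033 counts in Ad-Cre-GFP and 18690235 to 25363462 counts in Ad-GFP cells. Ad-GFP replicate 3, the shallowest library, lay at one end of the second principal component (3.15% of the variance), away from the 2 other Ad-GFP libraries.

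Genes of ciliary transport and of the transition zone fell together, by modest amounts. At an adjusted p under 0.05 (edgeR), 34 of the 43 members were called in either direction, against 69.8% of all tested genes. All 34 were lower in Ad-Cre-GFP cells, against 35.8% of all tested genes. None was called higher, against 34.0% of all tested genes. The shares of 35.8% lower and 34.0% higher are also the background for each group of members below. One member, Bbs12, was higher at an unadjusted p under 0.05, and DESeq2 and limma-voom also called 0 members higher. The median log2 fold change was -0.38 over the members and -0.01 over all tested genes. Every Ad-Cre-GFP library lay below every Ad-GFP library for 35 members, against 37.6% of tested genes. Falls of at least 2-fold were called for Tmem67 and Ift80, 2 of 43 members, against 7.56% of tested genes. Summed over the members, the level was 607, 601 and 608 CPM in Ad-Cre-GFP libraries and 792, 790 and 794 CPM in Ad-GFP libraries. In bulk RNA, fewer cells that express a gene and less RNA per cell cannot be told apart. Without Ad-GFP replicate 3, 34 members were called lower with a median of -0.40, and that library was the lowest control for 18 members and the highest for 17.

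**Figure D1:**
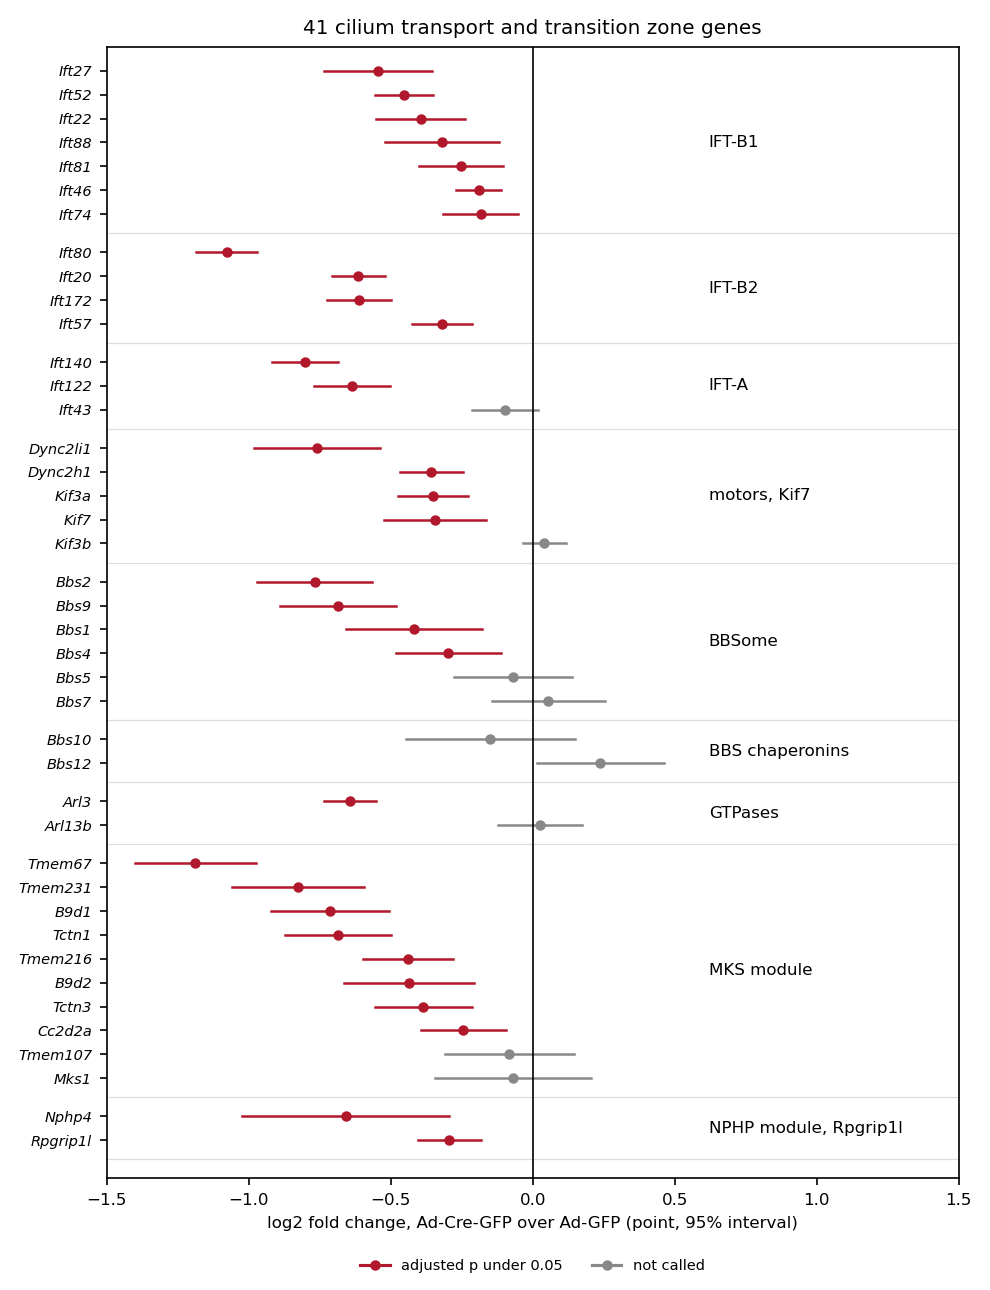
Log2 fold change, Ad-Cre-GFP over Ad-GFP, of 41 of the 43 members by role, with its 95% interval from the edgeR quasi-likelihood fit (3 libraries a group). Red marks the 32 called members shown, which all lie left of 0, and grey the 9 uncalled ones, which lie between -0.15 and 0.24.

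The promoters of some members hold the X-box, the site that RFX transcription factors bind upstream of many ciliary genes. These promoters are shown beside the falls of 4 RFX genes (values below). Any part of RFX factors in the members' changes was not tested. RefSeq promoter sequences (GRCm38.p6) were found for 36 members, and 7 had no entry, among them Dync2li1, Ift122, Ift80, Ift81 and Tmem67. The 250 bases before the RefSeq start were searched on both strands for GTTNCC followed, after a gap of 3 or 4 bases, by GNAAC, the gap of 3 also covering the form that ends in GGNAAC. A match was found in 2 of 36 members (5.56%), Mks1 and Bbs7, in 118 of 9869 tested genes with a promoter in the table, and in 0.951% of all 27025 genes there. Full sites with other gaps or letters were not searched, so these shares cover only the pattern given. Neither Mks1 nor Bbs7 was called in the comparison. They are shown as the only full matches, a choice made after their values were seen. Capitals mark the match.
Mks1: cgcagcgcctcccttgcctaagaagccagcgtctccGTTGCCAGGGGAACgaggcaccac
Bbs7: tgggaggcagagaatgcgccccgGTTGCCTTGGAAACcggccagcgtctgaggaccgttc
The Mks1 stretch is chr11:87853155-87853214 on the plus strand, and the Bbs7 stretch is chr3:36613474-36613533 on the minus strand.

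The half-site GTTGCC or GTTACC, also on either strand, was present in 13 of 36 members (36.1%), in 17.7% of tested genes with a promoter and in 17.6% of all genes there. It was present in 9 of 27 called members and in 4 of 9 uncalled members. Of the called members with a half-site, the 3 with the largest falls are shown, with the half-site in capitals.
Tmem231: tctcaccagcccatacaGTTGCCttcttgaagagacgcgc
Ift140: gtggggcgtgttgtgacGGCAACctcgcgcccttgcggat
Nphp4: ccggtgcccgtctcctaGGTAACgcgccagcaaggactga
These stretches are chr8:111933895-111933934 (minus strand), chr17:25015960-25015999 (plus) and chr4:152477902-152477941 (plus), the last beside a RefSeq start that lies inside the GENCODE span of Nphp4. A match is a stretch of letters and was not tested as a binding site.

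The 11 IFT-B subunits that carry an Ift symbol were all called lower, with log2 fold changes between -1.08 and -0.18; IFT-B subunits under other symbols, of which 4 were not called, are given with the other genes of the pathway. Ift80 (chromosome 3, 68892499 to 69004570, GRCm38), a WD-repeat subunit of the peripheral part of IFT-B, was at 18.4, 18.4 and 19.0 CPM in Ad-Cre-GFP libraries and at 39.5, 37.7 and 40.7 CPM in Ad-GFP libraries. The groups were far apart beside the spread of their replicates, and the level fell by 1.08 on the log2 scale (SE 0.05, adjusted p = 4.29e-14). Ift80 transcripts have near-identical annotated copies, which held 0 counts where the table lists them. In the same peripheral part, Ift20, which also works at the Golgi, averaged 29.9 ± 0.344 CPM in Ad-Cre-GFP and 45.7 ± 1.35 CPM in Ad-GFP cells (SD, n = 3 each). Ift172, the largest IFT-B subunit, averaged 18.3 ± 0.156 CPM in Ad-Cre-GFP and 28.0 ± 1.22 CPM in Ad-GFP cells. Ift57 averaged 23.6 ± 0.4999 CPM in Ad-Cre-GFP and 29.4 ± 0.220 CPM in Ad-GFP cells. In none of these 3 did the groups overlap.

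The 7 members of the IFT-B core had a median log2 fold change of -0.32, beside -0.61 for the 4 peripheral members. Both medians leave out the IFT-B subunits under other symbols, so they do not compare the whole parts. Ift27, a Rab-like GTPase that acts in the exit of the BBSome from the cilium, had the largest fall in the core (-0.54 ± 0.09 SE). It averaged 6.39 ± 0.225 CPM in Ad-Cre-GFP and 9.27 ± 0.727 CPM in Ad-GFP cells. Ift52 averaged 25.8 ± 0.516 CPM in Ad-Cre-GFP and 35.4 ± 1.25 CPM in Ad-GFP cells (-0.45 ± 0.05). Next came the second Rab-like GTPase Ift22 (-0.39 ± 0.08, or -0.24 when the libraries were thinned to equal depth), Ift88 (-0.32 ± 0.10) and Ift81 (-0.25 ± 0.07). Ift88, whose mutation in mice is a classic cause of lost cilia, averaged 6.69 ± 0.499 CPM in Ad-Cre-GFP and 8.40 ± 0.677 CPM in Ad-GFP cells. Ift46 had the highest CPM of the core, 57.6 ± 0.630 in Ad-Cre-GFP and 65.8 ± 2.19 in Ad-GFP cells (-0.19 ± 0.04), and it has a stretch shared with many other transcripts. Ift74, which binds tubulin together with Ift81, changed by -0.18 ± 0.06 (adjusted p = 0.0147). Ift74 was no longer called when Ad-Cre-GFP replicate 1 (adjusted p = 0.0711), Ad-Cre-GFP replicate 2 (0.0749) or Ad-GFP replicate 2 (0.0610) was left out, or with DESeq2 (0.0913). Over all alternatives its adjusted p ran from 0.00752 to 0.0913.

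In IFT-A, the complex of return transport, Ift140 and Ift122 fell and the small subunit Ift43 was not called. Ift140 (chromosome 17, 25016085 to 25099495) was at 17.99, 16.3 and 16.8 CPM in Ad-Cre-GFP libraries and at 29.4, 30.05 and 29.5 CPM in Ad-GFP libraries. The groups were well apart (-0.80 ± 0.06 SE, adjusted p = 2.39e-11). Ift122 averaged 13.3 ± 0.807 CPM in Ad-Cre-GFP and 20.7 ± 0.786 CPM in Ad-GFP cells (-0.64 ± 0.06). Ift43 was at 21.0, 22.0 and 22.7 CPM in Ad-Cre-GFP libraries and at 23.1, 24.3 and 22.8 CPM in Ad-GFP libraries. Its libraries did not overlap by a narrow margin, and the 95% interval of its log2 fold change was -0.21 to 0.02 (adjusted p = 0.122).

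Among the motors, both dynein-2 members and Kif7 fell, and of the kinesin-2 pair Kif3a fell and Kif3b was not called. Dync2li1 (chromosome 17, 84626496 to 84655588), the light intermediate chain of dynein-2, was at 4.86, 4.99 and 5.04 CPM in Ad-Cre-GFP libraries and at 9.48, 8.37 and 7.26 CPM in Ad-GFP libraries. The controls spread more than the Ad-Cre-GFP libraries and stayed above all of them (-0.76 ± 0.11 SE, adjusted p = 1.58e-06). Dync2h1, the dynein-2 heavy chain, averaged 24.1 ± 1.10 CPM in Ad-Cre-GFP and 31.0 ± 1.25 CPM in Ad-GFP cells (-0.36 ± 0.05). Kif3a and Kif3b pair to form the kinesin-2 motor. Kif3a averaged 17.4 ± 0.780 CPM in Ad-Cre-GFP and 22.3 ± 0.799 CPM in Ad-GFP cells (-0.35 ± 0.06, adjusted p = 1.74e-05). Kif3b was at 69.2, 69.3 and 72.0 CPM in Ad-Cre-GFP libraries and at 68.3, 68.8 and 67.5 CPM in Ad-GFP libraries. The Ad-Cre-GFP libraries lay just above the controls and Kif3b was not called, and the interval of its log2 fold change was -0.03 to 0.12 (adjusted p = 0.322). The ratio of Kif3a to Kif3b CPM was 0.251, 0.241 and 0.253 in Ad-Cre-GFP libraries and 0.325, 0.313 and 0.342 in Ad-GFP libraries, which do not overlap; this ratio was chosen after the values were seen and was not tested. Kif7, a kinesin at the ciliary tip that acts in Hedgehog signalling, averaged 8.37 ± 0.430 CPM in Ad-Cre-GFP and 10.6 ± 0.954 CPM in Ad-GFP cells (-0.34 ± 0.09, or -0.19 with GC and length trends removed), and 51 bases of its exons lie opposite Ticrr, which rose by 1.08.

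In the BBSome, 4 of 6 members fell. Bbs2 (chromosome 8, 94067954 to 94098928), a core subunit, was at 6.29, 5.12 and 5.88 CPM in Ad-Cre-GFP libraries and at 10.2, 10.1 and 9.12 CPM in Ad-GFP libraries (-0.77 ± 0.10 SE, adjusted p = 3.49e-07). Bbs9 (chromosome 9, 22475715 to 22888280) was at 4.79, 4.89 and 4.67 CPM in Ad-Cre-GFP libraries and at 7.52, 7.59 and 8.004 CPM in Ad-GFP libraries (-0.68 ± 0.10, adjusted p = 2.21e-06). In both genes all Ad-Cre-GFP libraries lay below the controls. Bbs1, the subunit that binds the GTPase Arl6, changed by -0.42 ± 0.11 (adjusted p = 0.00269) and Bbs4 by -0.30 ± 0.09 (adjusted p = 0.00511). Both calls were lost when the libraries were thinned to equal depth (adjusted p = 0.0615 and 0.0642); over all alternatives the adjusted p ran from 0.000611 to 0.0615 for Bbs1 and from 0.00365 to 0.0642 for Bbs4. Bbs1 averaged 5.55 ± 0.901 CPM in Ad-Cre-GFP and 7.45 ± 0.489 CPM in Ad-GFP cells. Bbs4 averaged 8.36 ± 0.671 CPM in Ad-Cre-GFP and 10.3 ± 0.796 CPM in Ad-GFP cells, and 194 bases of its exons lie opposite Adpgk, which rose by 0.38. The lipid-binding subunit Bbs5 averaged 5.79 ± 0.199 CPM in Ad-Cre-GFP and 6.08 ± 0.237 CPM in Ad-GFP cells, with an interval of -0.28 to 0.14. Bbs7, another core subunit, averaged 6.89 ± 0.286 CPM in Ad-Cre-GFP and 6.65 ± 0.431 CPM in Ad-GFP cells, with an interval of -0.14 to 0.26. Neither was called, and their groups overlapped. The ratio of Bbs2 to Bbs7 CPM was 0.885, 0.732 and 0.894 in Ad-Cre-GFP libraries and 1.63, 1.52 and 1.28 in Ad-GFP libraries, a ratio chosen after the values were seen and not tested.

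Neither of the chaperonin-like genes that help to assemble the BBSome was called. Bbs10 was at 2.53, 2.74 and 2.81 CPM in Ad-Cre-GFP libraries and at 2.78, 2.97 and 3.23 CPM in Ad-GFP libraries, with an interval of -0.45 to 0.15. Bbs12 was at 5.99, 6.16 and 6.72 CPM in Ad-Cre-GFP libraries and at 5.56, 5.60 and 4.72 CPM in Ad-GFP libraries. All Ad-Cre-GFP libraries of Bbs12 were above the controls, with a log2 fold change of 0.24 (95% interval 0.02 to 0.46) and an adjusted p of 0.0531. It was called higher when Ad-Cre-GFP replicate 1 was left out (adjusted p = 0.0473) and under 3 other settings, and its adjusted p ran from 0.0421 to 0.194 over all alternatives.

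Of the ciliary GTPases, Arl3 fell and Arl13b was not called. Arl3 (chromosome 19, 46531096 to 46573198), which releases lipid-modified cargo inside the cilium, was at 35.7, 34.3 and 35.9 CPM in Ad-Cre-GFP libraries and at 53.7, 54.5 and 57.6 CPM in Ad-GFP libraries. All Ad-Cre-GFP libraries were below the controls (-0.64 ± 0.04 SE, adjusted p = 1.81e-11). Arl13b, the exchange factor that activates Arl3, was at 13.3, 13.1 and 13.6 CPM in Ad-Cre-GFP libraries and at 12.9, 12.4 and 14.1 CPM in Ad-GFP libraries. Its groups overlapped, and the interval of its log2 fold change was -0.12 to 0.17 (adjusted p = 0.752). The ratio of Arl3 to Arl13b CPM averaged 2.65 ± 0.0371 in Ad-Cre-GFP and 4.21 ± 0.160 in Ad-GFP cells (SD, n = 3 each), again chosen after the values were seen and not tested. Arl3 shares stretches with other transcripts, so part of its count is uncertain.

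**Figure D2:**
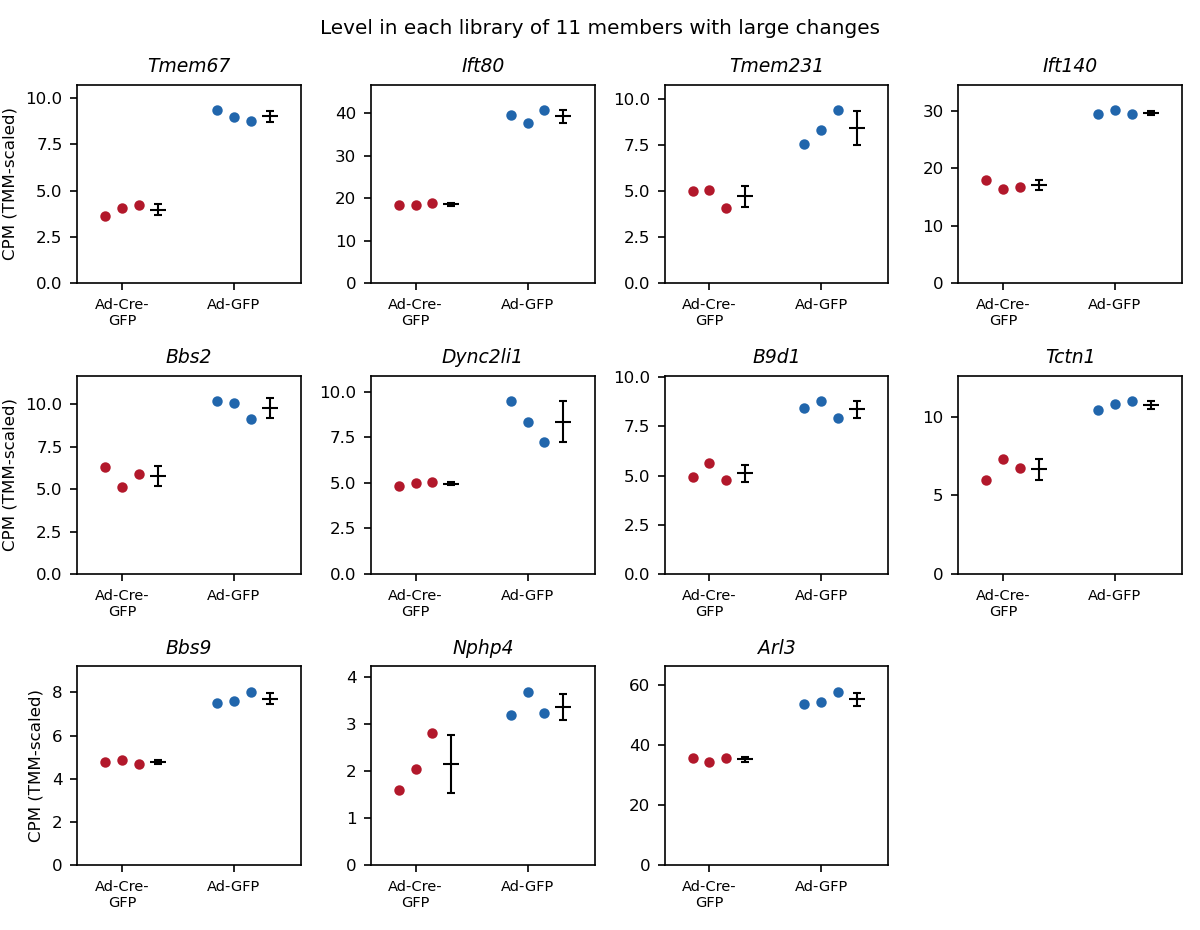
TMM-scaled CPM in each library (points) with mean and SD (bar) for 11 of the 12 members with the largest absolute log2 fold change, 3 Ad-Cre-GFP libraries at left and 3 Ad-GFP libraries at right of each panel, axes from 0. In all 11 genes the Ad-Cre-GFP points lie below the Ad-GFP points, from Tmem67 (-1.19) to Arl3 (-0.64).

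At the transition zone, 8 of 10 genes of the MKS module fell. Tmem67 (chromosome 4, 12039355 to 12090020), a receptor-like membrane protein also called meckelin, was at 3.63, 4.05 and 4.23 CPM in Ad-Cre-GFP libraries and at 9.34, 8.999 and 8.75 CPM in Ad-GFP libraries. It had the largest fall of all 43 members (-1.19 ± 0.10 SE, adjusted p = 8.37e-10). Part of its exons (289 bases) lies opposite Rbm12b2, which fell by 0.45, and 343 bases match Rbm12b1 at 99.4% identity. Strand in the counting is not stated, so these shared reads are uncertain. Tmem231 (chromosome 8, 111912011 to 111933881), another membrane protein of the module, was at 5.03, 5.05 and 4.05 CPM in Ad-Cre-GFP libraries and at 7.57, 8.29 and 9.38 CPM in Ad-GFP libraries (-0.83 ± 0.11, adjusted p = 1.01e-06). In both genes the groups were apart.

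B9d1, B9d2 and Mks1 are the B9-domain proteins of the module, and the first 2 fell. B9d1 (chromosome 11, 61505144 to 61512931) was at 4.93, 5.62 and 4.78 CPM in Ad-Cre-GFP libraries and at 8.43, 8.76 and 7.90 CPM in Ad-GFP libraries (-0.71 ± 0.10 SE, adjusted p = 1.70e-06). B9d2 averaged 5.41 ± 0.144 CPM in Ad-Cre-GFP and 7.26 ± 1.08 CPM in Ad-GFP cells (-0.44 ± 0.11). Mks1 averaged 3.56 ± 0.304 CPM in Ad-Cre-GFP and 3.72 ± 0.369 CPM in Ad-GFP cells, and its groups overlapped, with an interval of -0.34 to 0.21. Tctn1 (chromosome 5, 122237848 to 122264460), of the tectonic family, was at 5.95, 7.29 and 6.75 CPM in Ad-Cre-GFP libraries and at 10.4, 10.8 and 10.97 CPM in Ad-GFP libraries, well apart (-0.69 ± 0.09, adjusted p = 6.21e-07). Its exons overlap those of Hvcn1, which held 11 counts over all libraries. Tctn3 changed by -0.38 ± 0.08, and Tctn2, annotated as a processed transcript and not counted here, averaged 13.7 ± 0.536 CPM in Ad-Cre-GFP and 18.1 ± 0.351 CPM in Ad-GFP cells (-0.40 ± 0.06). Of the other membrane proteins of the module, Tmem216 averaged 8.54 ± 0.155 CPM in Ad-Cre-GFP and 11.6 ± 0.359 CPM in Ad-GFP cells (-0.44 ± 0.08). Tmem107 averaged 4.88 ± 0.310 CPM in Ad-Cre-GFP and 5.15 ± 0.195 CPM in Ad-GFP cells and was not called (interval -0.31 to 0.15). Cc2d2a, a large scaffold of the module, changed by -0.24 ± 0.07 (adjusted p = 0.00515), and it missed the threshold when Ad-Cre-GFP replicate 3 was left out (adjusted p = 0.0524, range over all alternatives 0.00162 to 0.0524).

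In the NPHP module and the scaffold that anchors it, Nphp4 and Rpgrip1l fell. Nphp4 (chromosome 4, 152476706 to 152563183) was at 1.61, 2.04 and 2.81 CPM in Ad-Cre-GFP libraries and at 3.19, 3.68 and 3.23 CPM in Ad-GFP libraries (-0.66 ± 0.18 SE, adjusted p = 0.00222). The groups did not overlap, although Nphp4 had only 47 to 94 counts per library and the widest error of the called members. Rpgrip1l, which anchors both modules, averaged 20.7 ± 0.418 CPM in Ad-Cre-GFP and 25.4 ± 0.667 CPM in Ad-GFP cells (-0.29 ± 0.05).

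Levels compared between genes need a scale per length, here CPM per kilobase of merged exons. On that scale the members were at 0.356 to 19.6 in Ad-Cre-GFP and 0.557 to 29.98 in Ad-GFP cells. The medians of the members were 2.23 in Ad-Cre-GFP and 2.95 in Ad-GFP cells, and those of 14761 tested genes with an exon length were 5.43 in Ad-Cre-GFP and 5.53 in Ad-GFP cells. Ift20 had the highest level, Arl3 the next and Ift43 the third in both groups. Nphp4 had the lowest level in both. Called and uncalled members occur at both ends of this order.

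The other genes of the pathway, taken from lists, went in both directions. Of 107 tested companion genes of ciliary trafficking, ciliary assembly and Hedgehog signalling, 55 were called lower (51.4%) and 19 higher, with a median log2 fold change of -0.15. Over all tested genes 35.8% were called lower and 34.0% higher, which is the background for each list below. Among IFT genes with other symbols, 5 of 10 tested fell and Wdr35, an IFT-A subunit, rose by 0.28 ± 0.06 (adjusted p = 0.000152). Wdr19 (-0.69 ± 0.08), Ttc26 (-0.46 ± 0.10) and Ttc21b (-0.37 ± 0.06) fell, as did Rabl2 (-0.59 ± 0.12), a GTPase that binds IFT-B, and Ttc30b (-1.06 ± 0.12), whose counts may be split with the paralogs Ttc30a1 and Ttc30a2. The 4 tested genes of this list that were not called are all IFT-B subunits. Their log2 fold changes were 0.06 for Cluap1 (95% interval -0.16 to 0.28), 0.01 for Traf3ip1 (-0.13 to 0.16), -0.07 for Hspb11 (-0.25 to 0.11) and -0.09 for Ttc30a1 (-0.37 to 0.19). The ratio of Ift140 to Wdr35 CPM, both IFT-A genes, averaged 0.688 ± 0.0154 in Ad-Cre-GFP and 1.46 ± 0.0746 in Ad-GFP cells (SD, n = 3 each, chosen after the values were seen). Of 7 other motor subunits, 5 fell, among them Kifap3, the third kinesin-2 subunit (-0.45 ± 0.04), the dynein-2 intermediate chains Wdr60 (-0.66 ± 0.10) and Wdr34 (-0.46 ± 0.09), and Dynlt1b (-0.50 ± 0.06) and Dynll1 (-0.39 ± 0.03), light chains that other dyneins share.

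Of 8 BBSome genes and partners with other symbols, 5 fell. The 3 that were not called were Bbip1 (0.06 ± 0.05 SE), Trim32 (0.11 ± 0.05) and Rabep1 (-0.05 ± 0.04). Ttc8, a BBSome subunit, averaged 8.54 ± 0.4597 CPM in Ad-Cre-GFP and 17.8 ± 0.957 CPM in Ad-GFP cells (-1.06 ± 0.07). Ccdc28b (-1.02 ± 0.23), Lztfl1, which holds back BBSome entry (-0.69 ± 0.07), and Arl6, the GTPase that recruits the BBSome to membranes (-0.29 ± 0.08), fell. The chaperonin-like Mkks changed by -0.15 ± 0.06 (adjusted p = 0.0385), and missed the threshold when Ad-Cre-GFP replicate 1, 2 or 3 (adjusted p = 0.175, 0.0540 and 0.0700) or Ad-GFP replicate 2 (0.352) was left out, with DESeq2 size factors (0.0547), with no filter on low counts (0.0639) and with DESeq2 (0.143), with a range of 0.00839 to 0.352 over all alternatives. Of 15 other transition zone genes, 8 fell and 2 rose. Sdccag8 (-0.72 ± 0.07), Rpgr (-0.68 ± 0.14), Ahi1, a scaffold mutated in Joubert syndrome (-0.62 ± 0.06), and Tmem138 (-0.57 ± 0.05) fell, while Cep290, which bridges membrane and microtubules at the transition zone, rose to 65.6 ± 1.26 CPM in Ad-Cre-GFP, against 40.5 ± 1.26 CPM in Ad-GFP cells (0.70 ± 0.04).

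Ciliary membrane cargo genes mostly fell, 10 of 15 tested. Pkd2, the polycystin channel, averaged 59.1 ± 0.970 CPM in Ad-Cre-GFP and 138 ± 11.1 CPM in Ad-GFP cells (-1.22 ± 0.05). Unc119 (-0.86 ± 0.12) and Pde6d (-0.51 ± 0.07), the carriers that Arl3 unloads, and the adenylyl cyclase Adcy3 (-0.79 ± 0.12) fell, while Gpr161, a receptor that holds back Hedgehog signalling, changed by -0.48 ± 0.06. Tulp3, which brings receptors into the cilium with IFT-A, was the only one called higher (0.39 ± 0.03), and 4 were not called. Genes of the distal appendages and of cilium assembly went both ways, with 9 falls and 8 rises among 24, a share near the background. Cep131 (-0.84 ± 0.08) and Ttbk2, the kinase that starts cilium assembly (-0.66 ± 0.07), fell, and Cep83 (0.80 ± 0.05), Ehd1 (0.77 ± 0.06) and Rab3ip (0.63 ± 0.04) rose.

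**Figure D3:**
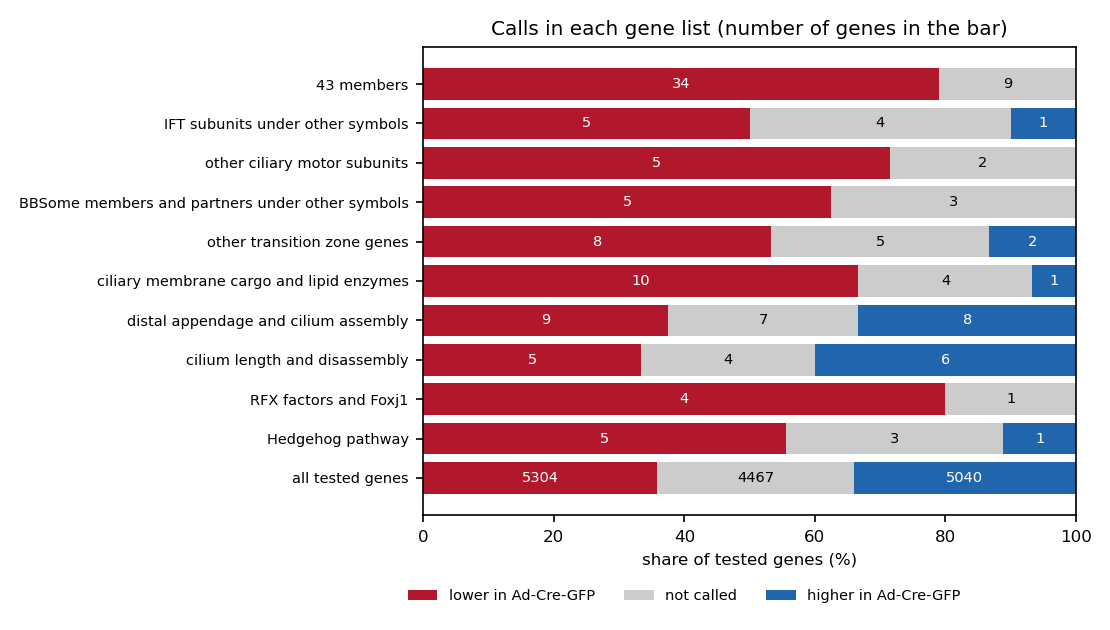
Share of tested genes called lower, not called or called higher in Ad-Cre-GFP cells for the 43 members, 9 lists of other ciliary and Hedgehog genes and all 14811 tested genes, with the number of genes printed in wide enough segments. The members have 34 genes lower and none higher, while the lists of cilium assembly and of cilium length and disassembly are split between both directions.

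Genes that set cilium length or take the cilium apart were also split, with 6 rises and 5 falls among 15. The share called lower (33.3%) was near the background (35.8%). The mitotic kinases Nek2 (0.82 ± 0.05) and Aurka (0.69 ± 0.10) rose, and the tubulin deacetylase Hdac6 (-0.73 ± 0.06) and the kinase Cdk20 (-0.71 ± 0.11) fell. Ttll6, a tubulin polyglutamylase, had 27, 18 and 13 counts in Ad-Cre-GFP libraries and 3, 2 and 1 counts in Ad-GFP libraries, a ratio of CPM (without TMM) of 7.23 (95% exact binomial interval 3.13 to 20.5, counting error only). Of the 5 tested RFX genes, which encode the transcription factors of the X-box, 4 fell, and Rfx7 had a log2 fold change of 0.04. The largest changes among them were those of Rfx5 (-1.28 ± 0.07), best known for MHC class II genes, and Rfx2 (-1.07 ± 0.10), followed by Rfx3 (-0.50 ± 0.09) and Rfx1 (-0.33 ± 0.06, or -0.18 with GC and length trends removed). Of 9 tested Hedgehog genes outside the members, 5 fell and Disp1 rose by 0.25 ± 0.04. Gas1, a coreceptor, averaged 14.1 ± 0.217 CPM in Ad-Cre-GFP and 144 ± 13.2 CPM in Ad-GFP cells (-3.34 ± 0.07), Gli1, the target gene commonly read as pathway output, averaged 0.579 ± 0.0426 CPM in Ad-Cre-GFP and 1.32 ± 0.327 CPM in Ad-GFP cells (-1.16 ± 0.26), and Cdon changed by -0.63 ± 0.03. Gli1 rests on 16 to 17 counts in Ad-Cre-GFP libraries and 24 to 32 counts in Ad-GFP libraries. Ptch1, the receptor and another target gene of the pathway, averaged 23.9 ± 1.25 CPM in Ad-Cre-GFP and 22.5 ± 0.101 CPM in Ad-GFP cells and was not called (0.09, 95% interval -0.02 to 0.21, adjusted p = 0.144). Smo, the signal transducer (0.07, adjusted p = 0.0503), and Gli3, the main repressor (-0.10, adjusted p = 0.138), were not called either.

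**Figure D4:**
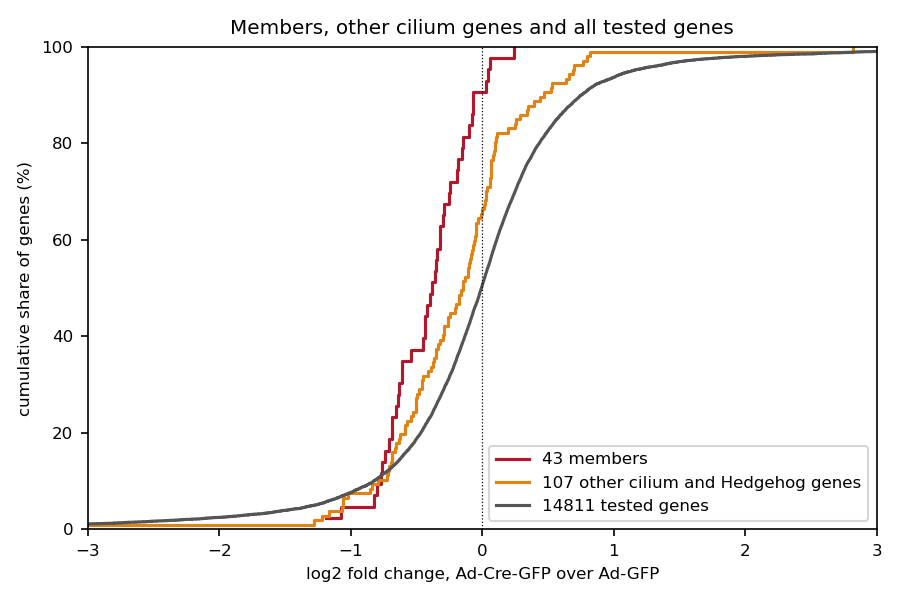
Cumulative share of genes (percent) by log2 fold change, Ad-Cre-GFP over Ad-GFP, for the 43 members, 107 other cilium and Hedgehog genes and all 14811 tested genes; the axis is limited to the range from -3 to 3. The members lie left of the other curves over most of the range (medians -0.38, -0.15 and -0.01), and their curve has no long left tail.

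Lists of proliferation and cell type genes were read beside the members. All 15 proliferation genes rose, by a median of 0.74, and their summed level was 3962 to 4078 CPM in Ad-Cre-GFP and 1999 to 2292 CPM in Ad-GFP libraries (sums of lists are CPM without TMM). Their part in the falls of ciliary genes was not tested. The labelled cell type was read in 15 markers of the ovarian surface and mesothelial lining, which summed to 7987 to 8053 CPM in Ad-Cre-GFP and 6844 to 6948 CPM in Ad-GFP libraries. Most of that sum was Aldh1a1, at 5062 ± 14.4 CPM in Ad-Cre-GFP and 3634 ± 26.4 CPM in Ad-GFP cells (with TMM). Of the 14 tested, 6 were called higher and 8 lower, Lgr5 had at most 1 count per library, and the defining keratins Krt8 and Krt18 were at 306 ± 1.93 and 596 ± 6.87 CPM in Ad-Cre-GFP and at 350 ± 12.2 and 564 ± 9.64 CPM in Ad-GFP cells. The change of Krt8 was -0.19 (-0.13 with GC and length trends removed), and the call of Krt18 as higher (0.08) did not hold when Ad-Cre-GFP replicate 1 (adjusted p = 0.0578) or Ad-GFP replicate 1 (0.0658) was left out. Krt19 fell to 185 ± 6.87 CPM in Ad-Cre-GFP, against 560 ± 9.96 CPM in Ad-GFP cells (-1.60). Gata4 (-1.37) and Wt1 (-1.15) also fell, while Krt7 (1.39), Msln (1.10) and Upk3b (1.05) rose. Multiciliated cells, a possible outside source of ciliary RNA, were nearly absent by their markers. Their 15 markers summed to 2.80 to 3.06 CPM in Ad-Cre-GFP and 2.64 to 3.85 CPM in Ad-GFP libraries, Gmnc, Tekt1 and Pifo had 0 counts in every library, and the master regulator Foxj1 had 6 counts at most. Of the 4 tested, 3 were not called, and the call of Cdhr3 (-0.98 ± 0.43, adjusted p = 0.0466) was lost without any 1 of 5 libraries (adjusted p = 0.0774 to 0.179), all except Ad-Cre-GFP replicate 3, with DESeq2 (0.171) and with no filter on low counts (0.0942; range over all alternatives 0.0107 to 0.179). Stromal fibroblast markers fell in 5 of 5 tested, with Lum at 0. Their sums were 972 to 1031 CPM in Ad-Cre-GFP and 2709 to 2868 CPM in Ad-GFP libraries, mostly from Col3a1. With TMM, Col3a1 averaged 738 CPM in Ad-Cre-GFP and 2350 CPM in Ad-GFP cells, and Dcn 24.7 and 93.0 CPM. Col1a1 changed by only -0.16 (261 and 291 CPM). Pdgfra (0.196 and 0.813 CPM) and Dpt (0.0228 and 0.439 CPM) were low in both groups. Immune markers summed to 6.57 to 7.14 CPM in Ad-Cre-GFP and 11.1 to 13.4 CPM in Ad-GFP libraries, with at most 4 counts of Ptprc in any library. Of the 2 tested, Cd14 fell (4.01 CPM in Ad-Cre-GFP and 9.46 CPM in Ad-GFP cells with TMM) and Cd68 was not called. Oviduct secretory markers summed to 2.44 to 2.81 CPM in Ad-Cre-GFP and 3.43 to 4.50 CPM in Ad-GFP libraries. Endothelial markers summed to 9.88 to 11.2 CPM in Ad-Cre-GFP and 3.05 to 3.08 CPM in Ad-GFP libraries. Most of that sum was Flt1 (8.48 CPM in Ad-Cre-GFP and 2.77 CPM in Ad-GFP cells with TMM). Kdr (2.00 and 0.0565 CPM) was the only other one tested, and both rose. Pecam1 had at most 8 counts, and Tie1 and Emcn had 0. Granulosa markers summed to 320 to 332 CPM in Ad-Cre-GFP and 135 to 147 CPM in Ad-GFP libraries, mostly from Inhbb, and theca markers to 94.4 to 96.5 CPM in Ad-Cre-GFP and 131.5 to 132.3 CPM in Ad-GFP libraries, mostly from Nr5a1. The part of these cell types in the members' falls was not tested.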

How the data were processed

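Poly(A)-selected RNA of 6 libraries was sequenced, per the labels' protocols. The authors deposited raw counts per Ensembl gene with 1 column per library, each column named after a BAM file, per the file headers. The build listed in the submitters' processing notes is GRCm38, and the tools are sleuth 0.30.1 and kallisto 0.46.2. Neither source names the aligner, the counter, its strand setting or the annotation release, so counts of overlapping genes and near-identical copies are uncertain. Symbols came from GENCODE mouse release M21 (GRCm38) by gene ID (48058 of 48440 matched). Genes were filtered with filterByExpr, TMM scaling was applied, and the robust quasi-likelihood test of edgeR 4.0.16 was run in R 4.3.3 without a replicate block, with Benjamini-Hochberg adjustment over 14811 genes. Unless another tool is named, every adjusted p is from that test. SE is the log2 fold change divided by the root of the F statistic. The procedure was tested on simulated data in which far fewer genes changed than were called here. That test does not cover changes this widespread. Replicate pairs differed by more than sampling noise (chi-square per gene 2.04 to 4.27), so all libraries were kept. Copies were searched with minimap2 2.31 (200 bases, 90% identity). A count of 0 allows up to 3 counts, and this bound and the exact binomial interval of Ttll6 cover counting error only. Intervals of log2 fold changes were built from the SE of the quasi-likelihood fit, so they include the spread between libraries.

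The members and lists were chosen with earlier results of these data known. Members are named by role, apart from 2 whose own results are not reported here and which stay in the counts; of each companion list, up to 5 called genes with the largest absolute change are named (Wdr35, Tulp3 and the uncalled companion genes were added after their values were seen), and 11 of the 12 members with the largest change, with some uncalled ones, are given per library. The planned promoter rule, on called members with a full X-box, found none, so other promoters are shown. Alternatives were DESeq2 size factors, upper-quartile scaling, other low-count filters, DESeq2 1.42.0, limma-voom (limma 3.58.1), a replicate block, each library left out, thinning to equal depth, and removal of GC and length trends. A count restricted to members without shared exons or copies was added after seeing the data.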

Additional observations from a re-analysis of the deposited data

How the results depend on the processing

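The median log2 fold change of the members stayed between -0.40 and -0.35 under every alternative run. Removal of GC and length trends gives no calls. Under the other alternatives 32 to 34 members were called lower, and 9351 to 10854 genes were called in all. The count of members called higher was 0, but 1 (Bbs12) with DESeq2 size factors, with genes kept by a mean CPM of 1 or more and when thinned to equal depth, and 0 to 1 when each library was left out. The other ciliary genes had 50 to 56 calls lower and 18 to 23 higher. No called member changed sign in any alternative, and 5 lost their call in at least 1, among them Bbs1, Bbs4, Cc2d2a and Ift74. Uncalled members near 0 did change sign: Arl13b was -0.091 and Tmem107 0.024 when thinned, and with each library left out Arl13b ran from -0.016 to 0.075 and Mks1 from -0.12 to 0.014. With GC and length trends removed Lats2 was -0.35 in place of -0.39, and 8 called members moved by more than their SE, Kif7 the most in proportion, to -0.19 in place of -0.34. Ift22 was -0.24 in place of -0.39 when thinned. Among 31 members with neither shared exons nor near-identical copies (chosen after seeing the data), 23 fell (74.2%), against 35.8% of all tested genes. The replicate block gave 10478 calls in all and 34 members lower. Same-numbered libraries shared little deviation (correlations 0.0488, 0.0510 and 0.00502). With so few libraries, this cannot show whether the numbers mark shared cultures. Depth limits the least expressed members: the median member was at 11.6 CPM in Ad-GFP cells, and Bbs10 at 2.996 CPM.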
